A study of Mus musculus with 18 samples.

Results

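Ripk4, Duox2 and Mslnl were chosen by name, as genes best known from epithelia, from a table of promoter scores in the mouse cerebellum, where they are listed as ripk4, duox2 and mslnl. They are 3 of its 24 genes. Shares of promoters called and median promoters below refer to genes of this table alone. They do not describe the promoters of the cerebellum at large. Chromatin immunoprecipitation sequencing had been made for 3 modifications of histone H3, namely trimethylation of lysine 4 (H3K4me3), acetylation of lysines 9 and 14 (H3K9/14ac) and acetylation of lysine 27 (H3K27ac). Whole cerebella came from wild-type (WT) mice at postnatal day 6 (P6) or 22 (P22) and from P22 mice with a conditional knockout (cKO) of Chd4. Each mark had 2 libraries per group, and H3K27ac was measured at P22 alone, which gives 16 libraries in 8 groups. The sources used here name neither the promoter that drives the recombinase nor the cells that lose Chd4. No label says that paired libraries are from different mice, so every p-value below rests on a spread that may be technical.

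Chd4 is the ATP-dependent remodeling subunit of NuRD, a complex that also carries histone deacetylases and is known for closing promoters. H3K4me3 is laid down around transcription start sites, most readily where CpG dinucleotides are dense, and it can be present at genes with little transcription. H3K9/14ac and H3K27ac mark promoters in active use. Ripk4 encodes a receptor-interacting serine/threonine kinase with ankyrin repeats that is required for keratinocyte differentiation. Duox2 encodes a dual oxidase, which makes hydrogen peroxide at the apical membrane of thyroid and mucosal epithelia together with its maturation factor Duoxa2. Mslnl encodes a little studied relative of mesothelin, a surface protein of mesothelial cells.

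The table places Ripk4 on chromosome 16 at position 97985362, Duox2 on chromosome 2 at position 122123901 and Mslnl on chromosome 17 at position 25891272 of mm9, going by the submitters' processing notes. RefSeq (GRCm38.p6) lists all 3 as protein-coding genes on the same chromosomes. Its next protein-coding gene after Duox2 is Duoxa2, and Mslnl is followed by Msln, the mesothelin gene. Of the 24 genes, 14 have a promoter in the RefSeq sequence table, among them Duox2 and Mslnl, and Ripk4 has no entry. The strand code of the score table, 0 for minus and 1 for plus, matched RefSeq for 13 of these 14 genes. The exception was Mslnl, which the score table codes as 0 and RefSeq places on the plus strand. Whether the scores listed for Mslnl belong to its RefSeq start site is therefore not shown.

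The promoters of Duox2 and Mslnl are printed because H3K4me3 was scored around start sites and because they differ in CpG content. Both run from 250 bases before to 50 bases after the RefSeq start site, 5′ to 3′ on the strand of the gene, with CpG dinucleotides in capitals. Duox2 is at chr2:122298178-122298477 on the minus strand and Mslnl at chr17:25735790-25736089 on the plus strand, both in GRCm38.p6.
Duox2: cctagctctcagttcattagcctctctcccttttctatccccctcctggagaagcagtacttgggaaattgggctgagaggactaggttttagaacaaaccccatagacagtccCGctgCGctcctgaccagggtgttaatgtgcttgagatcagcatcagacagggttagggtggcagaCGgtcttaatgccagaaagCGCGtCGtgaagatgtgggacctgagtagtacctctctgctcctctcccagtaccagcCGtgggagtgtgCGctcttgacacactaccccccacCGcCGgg
Mslnl: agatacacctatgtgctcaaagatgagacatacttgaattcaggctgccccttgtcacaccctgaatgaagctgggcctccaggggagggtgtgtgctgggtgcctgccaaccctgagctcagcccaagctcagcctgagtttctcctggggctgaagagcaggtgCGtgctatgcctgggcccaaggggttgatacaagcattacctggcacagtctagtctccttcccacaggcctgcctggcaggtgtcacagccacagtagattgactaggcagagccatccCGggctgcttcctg
The Duox2 promoter held 10 CpG dinucleotides and the Mslnl promoter 2, against a median of 7 over 32841 RefSeq promoters of the same length. Of all these promoters 56.5% had fewer than Duox2 and 14.1% fewer than Mslnl. The 14 matched genes of the score table had a median of 14.5, from 2 at Mslnl to 38, taking the richest promoter of each gene. The GC content was much the same, 55.3% in Duox2 and 57.7% in Mslnl, with a median of 52.7% over all promoters. The TATA box (TATAAA), the GC box (GGGCGG), the CCAAT box (CCAAT) and the E-boxes with the cores CAGCTG or CACGTG were searched on both strands. CCAAT matched once in Duox2, on the minus strand with its first listed base at -183 from the start site, and not in Mslnl. The other motifs matched in neither. In the order given, without CCAAT, they occur in 13.6%, 35.7%, 16.3% and 7.15% of all promoters, and CCAAT in 37.4%. A match or its absence describes these letters and nothing more.

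The score of a promoter is the authors' own unit. It ran from -0.82 to 67 over the table, how it was scaled and what sets its zero is not stated, and the read depth behind it is unknown. Levels of different marks have no common scale, so promoters were ranked within each library over the 23 promoters with values in all 16 libraries. Chd4 is not in the table, so the genotype labels could not be checked. Of 97 genes listed as markers of cerebellar and epithelial cells, as relatives or partners of the 3 genes, or as NuRD subunits, 4 are in the table: the 3 genes themselves and Nhlh1, a granule neuron gene. The tissue label was therefore not checked against markers.

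In WT cerebellum at P22 Ripk4 carried H3K4me3 at scores of 6.80 and 8.95, with little acetylation. Its H3K9/14ac scores were 0.60 and 1.37, and its H3K27ac scores 0.01 and 0.04. In rank, Ripk4 stood at 10 and 11 of 23 for H3K4me3, at 18 and 15 for H3K9/14ac and at 19 in both H3K27ac libraries. Duox2 had H3K4me3 scores of 1.96 and 1.27, H3K9/14ac scores of 0.42 and 1.36 and H3K27ac scores of -0.10 and -0.09. It ranked 14 and 15 for H3K4me3, and lower for acetylation, at 20 and 16 and at 21 and 22. Mslnl was near 0 in all 3 marks, with H3K4me3 at -0.23 and -0.35, H3K9/14ac at 0.07 and 0.16 and H3K27ac at -0.29 and -0.32. It was the lowest promoter of both H3K9/14ac libraries, ranked 22 and 23 for H3K27ac and 20 and 18 for H3K4me3.

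**Figure D1:**
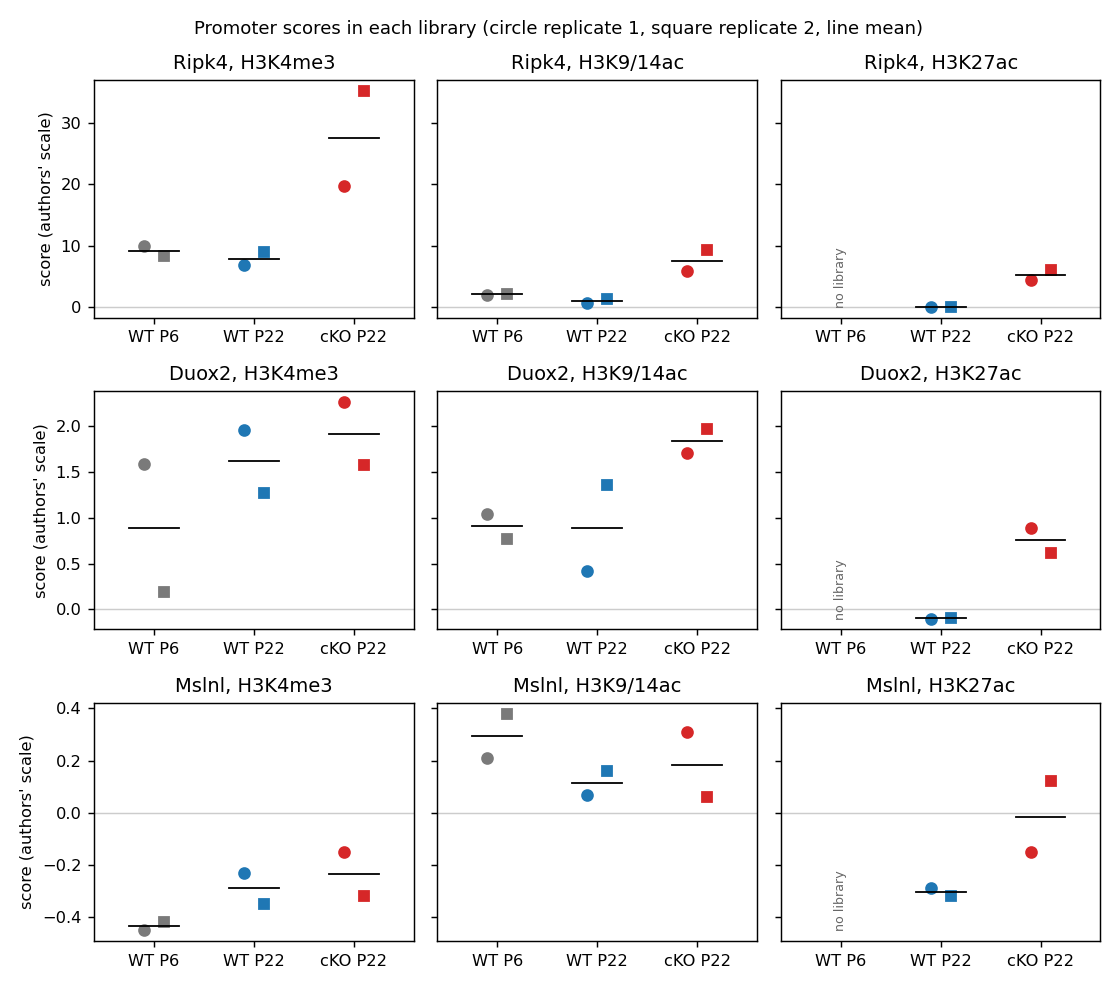
Scores (authors' scale, vertical axis, 1 range per gene) of Ripk4, Duox2 and Mslnl in each library, by mark (columns) and group (horizontal axis), with replicate 1 as circles, replicate 2 as squares and the mean of 2 libraries as a line. Both cKO libraries of Ripk4 lie above all of its WT libraries in each mark, whereas the Duox2 scores for H3K4me3 overlap between genotypes and Mslnl stays between -0.45 and 0.38 throughout.

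The balance between marks was tested on log2(score + 2), with each library centred on its median promoter, by limma over all promoters that passed a filter (a score of 1 or more, reached in 2 or more libraries of either mark over all groups). At Ripk4, H3K4me3 exceeded H3K27ac in WT at P22 by 1.90 ± 0.14 (SE) relative to the median promoter, the highest of 22 promoters (limma adjusted p = 0.00309). Calls in that direction were made at 36.4% of promoters. Against H3K9/14ac the excess at Ripk4 was 1.06 ± 0.25, the highest of 23 promoters (limma adjusted p = 0.0459), where 8.70% of promoters were called in that direction. Both calls rested on few libraries. Without H3K27ac WT replicate 1 or 2 the first had limma adjusted p = 0.0853 or 0.0924, and without H3K9/14ac WT replicate 1 or 2 the second had 0.370 or 0.329, with nearly the same size (1.06 in each). Over all alternatives the limma adjusted p ran from 1.37e-09 to 0.0924 for the first and from 0.00022 to 0.370 for the second, and with a pseudocount of 20 the second was 0.23 (limma adjusted p = 0.0576). The size of the first was 0.37 with a pseudocount of 20 and 2.66 with 1. At Duox2 the intervals of both differences included 0. The difference was 0.54 (95% interval -0.38 to 1.45) against H3K27ac and -0.33 (-1.31 to 0.64) against H3K9/14ac. Duox2 passed the filter of the former fit through its H3K4me3 scores alone. In the direction of less H3K4me3, 27.3% and 17.4% of promoters were called. The excess over H3K27ac at Duox2 was 0.82 without the filter, 0.92 without centring and 0.91 without H3K4me3 WT replicate 2, and passed in each (limma adjusted p = 0.00391, 0.00492 and 0.00342, within a range of 0.00342 to 0.877 over the alternatives). Without the filter 43.5% of promoters were called in that direction. Without H3K4me3 WT replicate 1 the difference from H3K9/14ac was -0.85 and passed (limma adjusted p = 0.0388, within a range of 0.0388 to 0.743). Mslnl did not pass the filter. Fitted without it, Mslnl had an H3K4me3 minus H3K9/14ac difference of -0.90 relative to the median promoter (limma adjusted p = 0.00255), where 41.7% of promoters were called lower. The scores behind it were near 0 in both marks, at -0.23 and -0.35 for H3K4me3 and 0.07 and 0.16 for H3K9/14ac. The value therefore depends on the centring, and Mslnl was not fitted without centring. Its difference from H3K27ac was -0.08 (95% interval -0.60 to 0.43, limma adjusted p = 0.816).

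**Figure D2:**
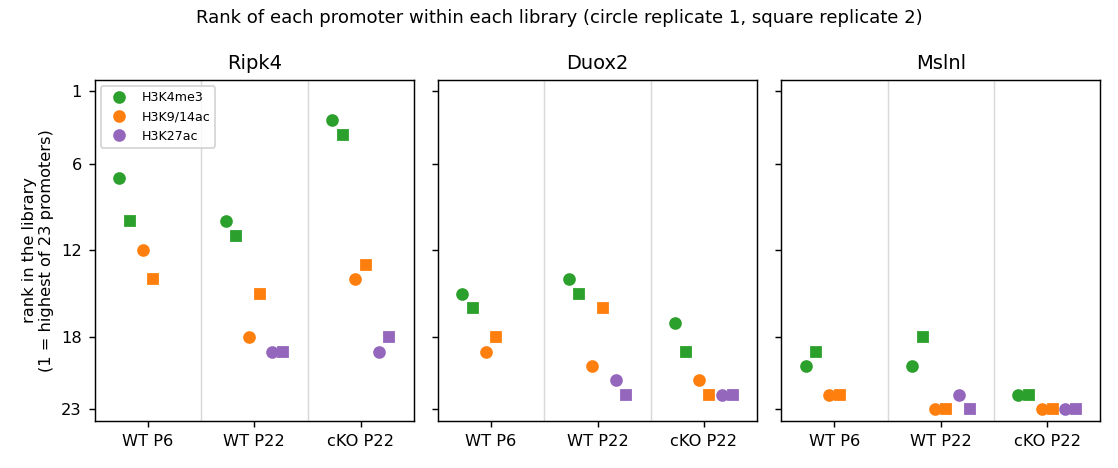
Rank of each promoter within each library (vertical axis, 1 is the highest of 23 promoters) by group (horizontal axis) and mark (colour), with replicate 1 as circles and replicate 2 as squares. Ripk4 ranks higher for H3K4me3 than for either acetylation mark in every group, and reaches 3 and 4 in the cKO libraries.

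In the cKO at P22 Ripk4 gained all 3 marks. Its H3K4me3 scores were 19.70 and 35.25, a mean of 27.5 ± 11.0 against 7.88 ± 1.52 in WT (SD, n = 2 each). H3K9/14ac reached 5.80 and 9.21, a mean of 7.51 ± 2.41 against 0.99 ± 0.54. H3K27ac went from near 0 to 4.43 and 6.01, a mean of 5.22 ± 1.12 against 0.025 ± 0.021. No cKO score overlapped the WT scores in any mark. The same order, with both cKO libraries higher, was seen at 69.6% of the 23 promoters for H3K4me3 and 95.7% for each acetylation mark. For H3K27ac Ripk4 passed the filter through its cKO libraries alone, so a difference there was bound to appear, and the fit of all 23 promoters without the filter is given for that mark.

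On the log2(score + 2) scale Ripk4 rose by 1.53 ± 0.42 (SE) for H3K4me3 (limma adjusted p = 0.00231), 1.66 ± 0.27 for H3K9/14ac (limma adjusted p = 3.48e-07) and, without the filter, 1.83 ± 0.22 for H3K27ac (limma adjusted p = 5.81e-10). These were the 5th of 18, the 3rd of 22 and the 4th of 23 changes in order of size. The sizes and their order between marks depend on the pseudocount. They were 1.64, 2.10 and 2.59 with a pseudocount of 1, and 0.75, 0.39 and 0.33 with 20. Most of the table moved with it. Calls of a rise were made at 50% of promoters for H3K4me3, 81.8% for H3K9/14ac and 95.2% for H3K27ac (91.3% without the filter), and the median changes of those that passed it were 0.94, 0.95 and 1.06. Without WT replicate 1 of the mark the 9 calls for H3K4me3 became 5 and the 18 for H3K9/14ac became 11. A shift common to a whole library cannot be told apart from a change at each promoter, since the scaling between libraries is not given. With each library centred on its median, Ripk4 was still higher in the cKO by 0.51 for H3K9/14ac (limma adjusted p = 0.0113). In that fit 3 of 22 promoters were called higher and 7 lower. For H3K4me3 the centred difference was 0.60 (limma adjusted p = 0.0875). The H3K4me3 call was also lost without WT replicate 1 (1.38, limma adjusted p = 0.0534), without a log scale (0.0802) and with the spread of each promoter taken alone (0.0682), within a range of 9.24e-07 to 0.0875 over all alternatives. Libraries came from whole cerebella, so a change within cells cannot be told apart from a change in the share of cells that carry the mark.

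Duox2 showed no gain of H3K4me3 beyond the spread between libraries. Its cKO scores of 2.26 and 1.57 overlapped the WT scores of 1.96 and 1.27, and the difference was 0.12 on the log2(score + 2) scale (95% interval -0.73 to 0.96, limma adjusted p = 0.785). This was the smallest change of the 18 promoters tested. Its H3K9/14ac scores of 1.70 and 1.97 in the cKO both exceeded those of WT, as at 95.7% of 23 promoters. The difference was 0.43 (95% interval -0.11 to 0.96, limma adjusted p = 0.123), the 21st of 22 in size. Centred on the library medians it turned to -0.72 (limma adjusted p = 0.0231), within a range of 0.0231 to 0.587 over all alternatives. With that centring limma called 7 of the 22 promoters lower and 3 higher for H3K9/14ac. For H3K27ac Duox2 scored 0.89 and 0.62 in the cKO, above -0.10 and -0.09 in WT, an order also seen at 95.7% of 23 promoters. It did not pass the filter. Fitted without the filter, the difference was 0.53 (95% interval 0.09 to 0.97, limma adjusted p = 0.0226), the 20th of 23 in size, where 91.3% of promoters were called higher. In rank Duox2 stood lower in the cKO than in WT for H3K4me3, at 17 and 19, and for H3K9/14ac, at 21 and 22, and it ranked 22 in both H3K27ac libraries.

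Mslnl stayed near 0 in the cKO. H3K4me3 was -0.15 and -0.32, H3K9/14ac 0.31 and 0.06 and H3K27ac -0.15 and 0.12. The H3K4me3 and H3K9/14ac scores overlapped those of WT, whereas both H3K27ac scores lay above both WT scores, as at 95.7% of 23 promoters. Mslnl passed the filter in 0 of 3 marks. Fitted without it, the differences on the log2(score + 2) scale were 0.04 (95% interval -0.58 to 0.67) for H3K4me3, 0.04 (-0.48 to 0.57) for H3K9/14ac and 0.22 (-0.22 to 0.67) for H3K27ac, with limma adjusted p = 0.873, 0.865 and 0.312. The last 2 were the lowest of 23 promoters. It was the lowest promoter of all 4 acetylation libraries of the cKO.

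**Figure D3:**
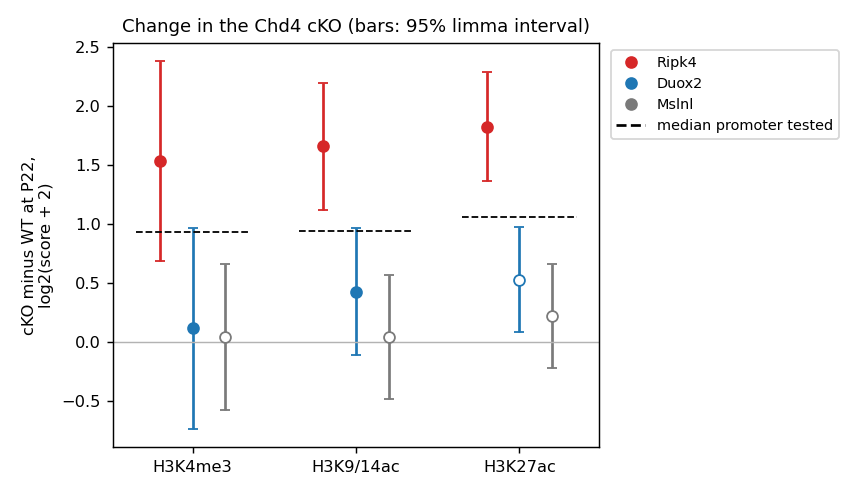
Difference between cKO and WT at P22 on the log2(score + 2) scale (vertical axis) for Ripk4, Duox2 and Mslnl in each mark (horizontal axis), with 95% limma intervals. Filled points come from the fit of promoters that passed the filter and open points from the fit without it. Dashed lines mark the median of the promoters that passed the filter (0.94, 0.95 and 1.06), beside open points too. The points of Ripk4 lie above and those of the other 2 genes below that line in each mark. For H3K4me3 the intervals of Ripk4 and Duox2 both include the line. The Duox2 interval also includes it for the acetylation mark in which Duox2 passed the filter.

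The gain at Ripk4 was next compared with the other 2 genes inside each library. This cancels a shift that adds the same amount to every log2 value of a library, but not a multiplication of all its scores, which moves a promoter near 0 less than Ripk4. For H3K4me3 Ripk4 exceeded Duox2 by 1.15 and 1.74 in WT and by 2.35 and 3.38 in the cKO, on the log2(score + 2) scale. For H3K9/14ac they were nearly level in WT, at 0.10 and 0.00, and apart by 1.08 and 1.498 in the cKO. For H3K27ac the differences were 0.08 and 0.10 in WT and 1.15 and 1.61 in the cKO. The distance thus grew by 1.42, 1.23 and 1.30, with no overlap between genotypes in any mark, and by 0.73, 0.32 and 0.27 with a pseudocount of 20. From Mslnl, the distance of Ripk4 grew by 1.49, 1.62 and 1.60, again without overlap. Between Duox2 and Mslnl it differed by 0.07, 0.38 and 0.31, with overlap for H3K4me3 alone. Exact two-sided permutation tests gave p = 0.333 for 8 of these 9 comparisons, the smallest value that 2 libraries against 2 allow, and p = 0.667 for Duox2 against Mslnl in H3K4me3. Benjamini-Hochberg adjusted over the 9 they were 0.375 and 0.667, so none could pass. The distances rest on the same scores as the changes above and are no separate evidence. Without the filter, Duox2 and Mslnl were 21st and 22nd of 23 promoters in the size of the H3K4me3 change. They were 21st and 23rd for H3K9/14ac, and 20th and 23rd for H3K27ac. Most promoters of the table therefore rose more than both, and a growing distance from them is not particular to Ripk4. How often other pairs of promoters part without overlap was not counted.

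**Figure D4:**
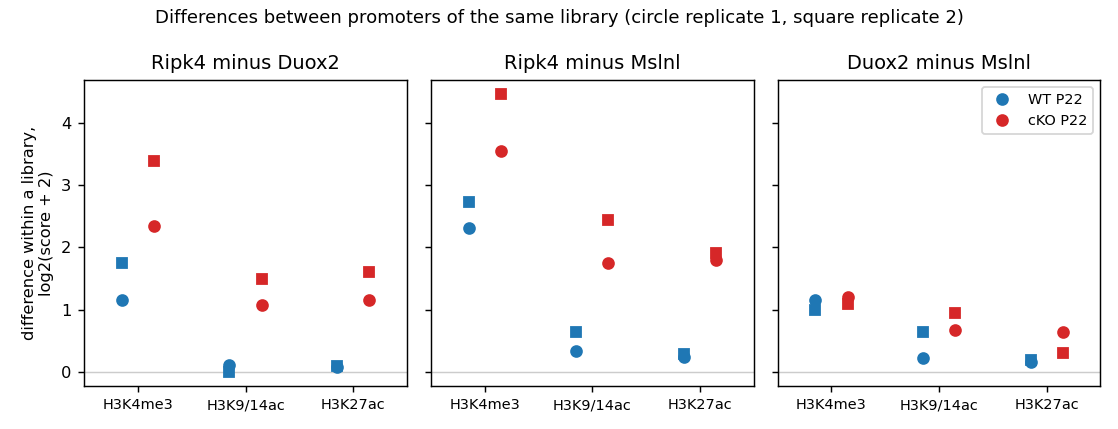
Difference between 2 promoters of the same library on the log2(score + 2) scale (vertical axis) in each mark (horizontal axis), WT in blue and cKO in red, replicate 1 as circles and replicate 2 as squares. Ripk4 stands farther above Duox2 and Mslnl in both cKO libraries than in both WT libraries of each mark.

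Whether the cKO change of Ripk4 differed between marks was tested as an interaction term. The change in H3K4me3 minus that in H3K9/14ac was -0.13 (95% interval -1.16 to 0.91), and minus that in H3K27ac -0.29 (-1.24 to 0.65), with limma adjusted p = 0.949 and 0.839. For Duox2 the differences were -0.31 (-1.34 to 0.72) and -0.41 (-1.31 to 0.48), with the same adjusted p. Duox2 entered the latter fit through H3K4me3 alone, and without the filter the difference was -0.41 (-1.21 to 0.38). Limma called 0% of 22 promoters in each test, and 1 and 2 promoters had an unadjusted p under 0.05. In the comparison with H3K27ac, centring gave calls at 9 of these promoters, 8 lower and 1 higher. With centred libraries, the H3K4me3 change of Ripk4 was smaller than that of H3K27ac by 0.59 (limma adjusted p = 0.031, within a range of 0.031 to 0.979 over all alternatives).

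In the cKO too, Ripk4 was richer in H3K4me3 than in acetylation relative to the median promoter. The excess was 0.82 ± 0.10 (SE) over H3K9/14ac and 1.31 ± 0.10 over H3K27ac (limma adjusted p = 0.00167 and 0.000364), each the highest of 22 promoters, where 9.09% and 13.6% were called in that direction. Both calls held in each of the 9 alternatives tried for them. Duox2 passed the filter against H3K27ac through H3K4me3 alone, and without the filter the value there was -0.19 (95% interval -1.17 to 0.79). With the filter its values were -0.76 (95% interval -1.67 to 0.15) and -0.17 (-1.11 to 0.76), where 31.8% and 36.4% of promoters were called lower. Without H3K4me3 cKO replicate 1 the former was -1.25 and passed (limma adjusted p = 1.68e-05, within a range of 1.04e-05 to 0.954 over all alternatives).

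Between P6 and P22 none of the 3 promoters changed in WT by the test. Ripk4 carried H3K4me3 at 9.92 and 8.26 at P6, close to its P22 scores and overlapping them. The difference from P6 to P22 was -0.17 on the log2(score + 2) scale (95% interval -1.03 to 0.68, limma adjusted p = 0.872). Its H3K9/14ac scores of 1.91 and 2.16 at P6 both lay above those at P22, as at 37.5% of 24 promoters, with the opposite order at 25%. The difference was -0.45 (95% interval -1.01 to 0.11, limma adjusted p = 0.384), and it passed with centred libraries (-0.51, limma adjusted p = 0.0191, within a range of 0.0191 to 0.920 over all alternatives). Without centring, limma called a fall at 8.70% of promoters for H3K9/14ac and at 15.8% for H3K4me3, and a rise at 4.35% and 10.5%. With centring it called 4 of 23 promoters lower and 2 higher for H3K9/14ac. The P22 cKO scores of Ripk4 exceeded its P6 scores as well, in H3K4me3 (19.70 and 35.25 against 9.92 and 8.26) and in H3K9/14ac (5.80 and 9.21 against 1.91 and 2.16). Both cKO libraries lay above both P6 libraries at 65.2% of 23 promoters for H3K4me3, with the opposite order at 8.70%, and at 87% for H3K9/14ac. This difference was not tested, and both comparisons above share the WT P22 libraries.

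Duox2 at P6 scored 1.59 and 0.19 for H3K4me3 and 1.04 and 0.77 for H3K9/14ac, each overlapping its P22 scores. The differences to P22 were 0.36 (95% interval -0.49 to 1.21, limma adjusted p = 0.637) and -0.03 (-0.59 to 0.54, limma adjusted p = 0.992). Mslnl scored -0.45 and -0.42 for H3K4me3 and 0.21 and 0.38 for H3K9/14ac at P6. Its P22 libraries lay above these for H3K4me3, as at 29.2% of promoters, with the opposite order at 25%. For H3K9/14ac they lay below, as at 37.5% of promoters, with the opposite order at 25%. Fitted without the filter the differences were 0.13 (-0.51 to 0.77) and -0.12 (-0.67 to 0.43), with limma adjusted p = 0.913 and 0.777.

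The balance of H3K4me3 over H3K9/14ac at P6 was 0.51 ± 0.24 (SE) at Ripk4 relative to the median promoter, the 3rd of 23 (limma adjusted p = 0.0765), where 4.35% of promoters were called in that direction. Without centring, or without the filter, it passed (1.46 and 0.59, limma adjusted p = 0.00661 and 0.0234, within a range of 0.00661 to 0.311 over all alternatives), and without the filter 20.8% of promoters were called so. At Duox2 it was -0.998 ± 0.24 (limma adjusted p = 0.000495), among 39.1% of promoters called in that direction. That call was lost without each of the 4 libraries in turn (-1.42 to -0.58, limma adjusted p = 0.0698 to 0.3997), and without centring the difference was -0.05 (limma adjusted p = 0.882).

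Over the 16 libraries the promoters most like Ripk4 were the one listed as clcf and Smoc1, the gene of a secreted calcium-binding matrix protein, with Pearson r of 0.97 and 0.94 on log2(score + 2). In the cKO clcf too had more H3K4me3 than H3K9/14ac and H3K27ac relative to the median promoter, by 0.61 and 0.76 (limma adjusted p = 0.0115 and 0.0031). Each was the 2nd of 22, whereas Smoc1 had 0.17 and 0.28 (limma adjusted p = 0.188 and 0.067). In WT at P22 the values were 0.94 and 1.29 at clcf (limma adjusted p = 0.0459 and 0.00309). At Smoc1 they were 0.57 and 0.86 (limma adjusted p = 0.129 and 0.0128). The promoters most like Duox2 were Ripk4 and the copine gene Cpne7 (r = 0.69 and 0.67). For Mslnl they were another copine gene, Cpne6, and the G protein subunit gene Gnb3 (r = 0.72 and 0.56). Ripk4 and Mslnl had r = -0.30. These points share their libraries, marks and groups, so r describes the pattern and carries no test. In level Duox2 was closer to Mslnl, with a root mean square distance of 0.76, than to Ripk4, with 1.52.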

How the data were processed

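Chromatin of cerebella was immunoprecipitated with antibodies against the 3 marks and sequenced on an Illumina instrument, per the labels' protocols. The submitters' processing notes name BWA and mm9. The deposited values are a score per promoter and library. How the authors made the score from reads, including background and scaling, is not given in the sources used here, so depth and counting error are unknown. The 2 inputs and the authors' mean curves, which hold no single gene, were not used.

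Each mark was fitted with limma 3.58.1 (R 4.3.3) on log2(score + 2) over all its libraries, without covariates, keeping promoters that reached a score of 1 in 2 or more libraries. P-values were Benjamini-Hochberg adjusted over all promoters tested (threshold 0.05). In the fits per mark with the filter, limma pooled the spread over promoters fully. The H3K4me3 fit without the filter pooled it in part, with SEs of the cKO change of 0.34 at Ripk4 and 0.27 at Mslnl. Promoters are treated as independent, so its p-values are too small where whole libraries shift. The interaction and the balance of marks used fits on 2 marks. The fit was tested on simulated tables with independent errors and changes at few promoters. These had no shift of whole libraries, so they cannot show how the fit behaves under such a shift. The text names the 3 genes and, for each, the 2 promoters with the highest Pearson r. Genes, lists and tests were chosen with earlier results of these data known. The design had assumed that counts were possible, and its stated choice for other units was used. Alternatives were pseudocounts of 1 and 20, no filter, other centring, no log, own spread, fewer groups, a replicate block and each library left out. Ranks were taken with pandas 2.3.3 and numpy 2.4.6, and figures drawn with matplotlib 3.10.9, under Python 3.11.15.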

Additional observations from a re-analysis of the deposited data

How the results depend on the processing

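For Ripk4 and Duox2, where they passed the filter, 58 of 67 alternative values of the genotype comparisons kept the direction and the side of the threshold, and 218 of 265 over all comparisons by limma. Mslnl passed no filter and is not among them. The 67 include the H3K27ac change of Ripk4, the same in 11 of 11, where Ripk4 passed the filter through its cKO libraries alone. Leaving out a WT P6 library gave the same genotype fit as using only the groups compared. The alternatives thus overlap, and the counts are no measure of independent checks. Depth is unknown, so no limit from it can be given. The cause of the changes below was not tested.

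Numbers of promoters called by limma moved as follows. For H3K4me3 in the cKO, 9 calls became 5 with a pseudocount of 20, 5 with centring (4 higher, 1 lower), 0 without log, 3 with own spread, 15 with the replicate block and 5 (WT P22 replicate 1) to 12 with a library left out. For H3K9/14ac 18 became 10 with centring (3 higher, 7 lower), 11 with own spread and 11 (WT P22 replicate 1) to 20 with a library left out. For H3K27ac 20 became 11 with centring (5 higher, 6 lower) and 8 with own spread. For age, H3K4me3 went from 5 to 2 with a pseudocount of 20, 10 with centring, 1 without log, 2 with own spread, 10 with the replicate block and 3 (WT P22 replicate 2) to 7 with a library left out, and H3K9/14ac from 3 to 6 with centring, 1 without log, 1 with own spread and 7 with the replicate block. The interaction with H3K9/14ac went from 0 to 2 with a pseudocount of 1, 1 with the replicate block and 0 to 1 (H3K4me3 cKO replicate 1) with a library left out, and that with H3K27ac from 0 to 2 with a pseudocount of 1, 9 with centring and 0 to 3 (H3K4me3 cKO replicate 1) with a library left out. The balance against H3K9/14ac in WT P22 went from 6 to 15 without the filter, 10 without centring, 0 with the replicate block and 0 (either H3K9/14ac library) to 10 (H3K4me3 replicate 1) with a library left out. Against H3K27ac it went from 14 to 8 with the replicate block and 0 (either H3K27ac library) to 16 with a library left out. In the cKO it went from 9 to 3 with a pseudocount of 20, 5 without centring and 4 (either H3K9/14ac library) to 10 with a library left out for H3K9/14ac. For H3K27ac it was 11, and 3 (H3K27ac replicate 1), 7 (H3K4me3 replicate 2) or up to 11 with a library left out. At P6 10 became 4 to 6, whichever of the 4 libraries was left out.

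Directions turned as follows. Centring gave Duox2 -0.82 for H3K4me3 and -0.72 for H3K9/14ac in the cKO. With a pseudocount of 20 the interaction at Ripk4 was 0.36 against H3K9/14ac and 0.42 against H3K27ac. Without centring the balance at Duox2 was 0.34 (WT P22, H3K9/14ac), 0.025 (cKO, H3K9/14ac) and 0.50 (cKO, H3K27ac). With a library left out, Duox2 ran from -0.022 to 0.25 for H3K4me3 in the cKO, from -0.26 to 0.21 for H3K9/14ac with age, from -0.85 to 0.18 for the WT P22 balance against H3K9/14ac and from -0.67 to 0.32 for the cKO balance against H3K27ac. Ripk4 ran from -0.52 to 0.26 and from -0.68 to 0.10 for the interactions with H3K9/14ac and H3K27ac, and the growth of the distance from Duox2 to Mslnl in H3K4me3 from -0.016 to 0.16.

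The labels number replicates alike in each group but tie the numbers to no animal or day. Within a mark, same-numbered libraries deviated together across promoters with r from 0.22 to 0.74 for H3K4me3 and H3K9/14ac and -0.29 for H3K27ac. With the replicate block Duox2 passed for H3K9/14ac in the cKO (0.43, limma adjusted p = 0.0234) and for its cKO balance against H3K9/14ac (-0.76, limma adjusted p = 1.04e-05), and Ripk4 for H3K9/14ac with age (-0.45, limma adjusted p = 0.0492) and for its P6 balance (0.51, limma adjusted p = 0.0459). With that block limma called 21 of 22 promoters higher for H3K9/14ac in the cKO. It called 8 of 22 lower for the cKO balance against H3K9/14ac, and 4 of 23 lower for H3K9/14ac with age. Ripk4 no longer passed for its WT P22 balance against H3K9/14ac (1.06, limma adjusted p = 0.0625). With H3K27ac, a fit of only the groups compared is the main fit.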
